A study of Mus musculus with 20 samples.

Results

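The genes described here load and display peptides on major histocompatibility complex (MHC) class I molecules, and 1 of them, Nlrc5, switches such genes on. They are H2-K1, H2-D1, B2m, H2-T23, Tap1, Tap2, Tapbp, Psmb8, Psmb9 and Nlrc5, chosen by name, and all 10 were found among the 21315 gene symbols measured in each of 20 RNA-seq libraries. The RNA came from microglia, the resident macrophages of the brain, sorted from 9-month-old C57BL/6 mice. WT mice were compared with APP-KI mice, in which the mouse App gene carries a humanized Aβ sequence with the Swedish, Iberian and Arctic mutations and which form Aβ plaques, with C3aRKO mice, which lack the complement C3a receptor gene C3ar1, and with APP-KI;C3aRKO mice, which combine both. In 14 libraries the sorted microglia were not selected on C3aR (3 WT, 3 APP-KI, 3 C3aRKO and 5 APP-KI;C3aRKO), and these are called all sorted microglia here. In the other 6 libraries (3 WT C3aR+ and 3 APP-KI C3aR+) the cells were taken for the red fluorescent protein Td-tomato, made from a reporter allele at C3ar1, so the reporter allele and the sort cannot be told apart in these groups. The C3aRKO line came from a repository and was backcrossed to C57BL/6J.

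Class I molecules are made of a heavy chain, such as those encoded by H2-K1 and H2-D1, and the light chain β2-microglobulin, encoded by B2m, and they show peptides from inside the cell to CD8 T cells. The peptides are cut by the proteasome, in which the interferon-induced catalytic subunits of the immunoproteasome, encoded by Psmb8, Psmb9 and Psmb10, can replace the constitutive subunits of Psmb5, Psmb6 and Psmb7. They are then carried into the endoplasmic reticulum by the transporter TAP, a pair of the products of Tap1 and Tap2, and tapasin, from Tapbp, holds an empty class I molecule next to TAP. Nlrc5 is known as the class I transactivator, and interferons raise the whole set. Microglia are known to express class I genes at rest and more of them in interferon-driven and plaque-associated states.

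The genes other than B2m and Nlrc5 lie on chromosome 17, in the mouse MHC, at chr17:33996017-34000347 on the minus strand (H2-K1), chr17:35262730-35267499 on the plus strand (H2-D1), chr17:36029773-36032855 on the minus strand (H2-T23), chr17:34187553-34197225 on the plus strand (Tap1), chr17:34203527-34216321 on the plus strand (Tap2), chr17:33915899-33929292 on the plus strand (Tapbp), chr17:34197721-34201454 on the plus strand (Psmb8) and chr17:34181987-34187764 on the minus strand (Psmb9). B2m lies at chr2:122147686-122153083 and Nlrc5 at chr8:94434356-94527272, both on the plus strand (GENCODE M21, build mm10). Tap1 and Psmb9 are read away from each other from starts 226 bases apart in RefSeq, and their annotated ends overlap on opposite strands, so reads there could not be assigned without strand. H2-K1 and H2-D1 are close paralogs, and how the counting treated reads shared between such genes is not given in the sources used here.

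The promoters of 5 of these genes are printed, those of the heavy and light chains because their transcripts were called together in C3aR+ microglia, and that of Tap1 because its start lies next to that of Psmb9. Each line holds the 250 bases before a RefSeq start (GRCm38.p6), read 5′ to 3′ on the gene's strand, and capitals mark every match, on either strand, to letters known from class I promoters: an NF-κB site (the first run of capitals in the H2-K1 and H2-D1 lines, searched in just those letters), GAA or GAAA followed by 2 bases of any kind and then GAAA (a shorter and a longer form, bound by IRF factors, no match of one overlapping a match of the other), TGACG (the X2 box of the complex that NLRC5 joins) and CCAAT (the Y box). The windows are chr17:34000348-34000597 for H2-K1, chr17:35262844-35263093 for H2-D1, chr2:122147437-122147686 for B2m, chr17:36032702-36032951 for H2-T23 and chr17:34187306-34187555 for Tap1.
H2-K1: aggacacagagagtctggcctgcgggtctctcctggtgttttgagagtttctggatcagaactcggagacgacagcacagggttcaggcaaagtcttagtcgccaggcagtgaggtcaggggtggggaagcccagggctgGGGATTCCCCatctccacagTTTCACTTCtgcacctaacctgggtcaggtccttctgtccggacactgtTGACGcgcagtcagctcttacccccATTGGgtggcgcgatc
H2-D1: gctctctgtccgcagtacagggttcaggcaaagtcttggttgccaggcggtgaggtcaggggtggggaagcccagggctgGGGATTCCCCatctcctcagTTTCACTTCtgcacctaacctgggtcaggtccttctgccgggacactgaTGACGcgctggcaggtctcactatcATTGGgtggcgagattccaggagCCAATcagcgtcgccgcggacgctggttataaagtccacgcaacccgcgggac
B2m: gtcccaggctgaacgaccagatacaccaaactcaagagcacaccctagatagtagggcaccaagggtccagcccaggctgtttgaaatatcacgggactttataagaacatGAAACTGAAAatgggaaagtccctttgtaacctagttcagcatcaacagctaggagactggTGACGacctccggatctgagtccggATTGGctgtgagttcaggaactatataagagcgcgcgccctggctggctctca
H2-T23: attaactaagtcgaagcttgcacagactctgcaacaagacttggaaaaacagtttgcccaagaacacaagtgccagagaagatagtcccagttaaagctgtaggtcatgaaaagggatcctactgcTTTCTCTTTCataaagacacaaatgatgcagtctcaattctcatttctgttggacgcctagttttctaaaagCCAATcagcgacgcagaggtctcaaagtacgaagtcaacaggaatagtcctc
Tap1: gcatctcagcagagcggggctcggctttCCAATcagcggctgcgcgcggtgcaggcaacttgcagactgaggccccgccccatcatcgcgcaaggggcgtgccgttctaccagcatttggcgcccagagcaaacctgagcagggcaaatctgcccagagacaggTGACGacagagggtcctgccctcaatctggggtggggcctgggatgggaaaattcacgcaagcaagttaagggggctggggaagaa

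The H2-D1 window lies inside the GENCODE gene and the H2-T23 window overlaps its end, since the RefSeq starts differ. Counting back from the start, H2-K1 held the NF-κB letters at −110 to −101, the IRF letters in reverse at −90 to −82, TGACG at −41 to −37 and CCAAT in reverse at −16 to −12. H2-D1 held the same 4 motifs in the same order, from −170, −150, −101 and −76, with a further CCAAT from −53. RefSeq lists a second start for H2-K1, whose window also holds a further CCAAT, from −6. B2m held the IRF letters from −139, TGACG from −78 and CCAAT in reverse from −53, while H2-T23 held IRF letters in reverse from −124 and CCAAT from −52 without TGACG. Tap1 held CCAAT from −222 and TGACG from −86. Of 32851 promoter windows of this length, 0.0852% held the NF-κB letters, 6.31% the shorter and 2.98% the longer IRF letters, 17.8% TGACG and 33.8% CCAAT, and 6.12% held both TGACG and CCAAT. Promoters were matched for 8 of the 10 genes. In the others matched, Psmb9 held TGACG and CCAAT, Tapbp held CCAAT alone and Psmb8 held none of these letters in its window. The windows of Psmb9 and Tap1 overlap, and the Psmb9 matches are the same bases as those of Tap1, read on the other strand.

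The libraries held between 13939559 and 30388941 reads in the C3aR+ groups and between 42239056 and 76608464 in all sorted microglia. Values are given as reads scaled to each library's upper quartile and multiplied by 1 constant, which puts them near CPM (scaled values), and 1 read was worth 0.0132 to 0.0786. Of the 20 libraries, 4 had reads on few genes (12386 to 13249 genes: APP-KI replicate 4, C3aRKO replicates 1 and 2 and APP-KI;C3aRKO replicate 1) and APP-KI replicate 5 had 21210, against 14885 to 17445 in the other 15. C3ar1 itself lay at 61.9 to 80.4 in APP-KI;C3aRKO and 39.9 to 68.1 in C3aRKO, below 276 to 340.0 in WT and 165 to 388 in APP-KI. It lay at 37.6, 71.0 and 81.2 in the libraries labelled WT C3aR+, near the 39.9 to 80.4 of the knockouts and below every all-sorted WT library, and at 201 to 383 in APP-KI C3aR+. The C3ar1 level therefore goes against the label of the WT C3aR+ libraries, on which each C3aR+ comparison rests and which cannot be left out of it. Reads on Y-linked genes were found in all 5 APP-KI;C3aRKO libraries, in WT replicate 4, APP-KI replicates 5 and 6 and C3aRKO replicate 1, and at a lower level in WT C3aR+ replicate 2, so sex moved with genotype in all sorted microglia. The microglial markers (P2ry12, Tmem119, Cx3cr1, Csf1r, Sall1, Siglech and Fcrls) were above 0 in every library and summed to 7537 in APP-KI;C3aRKO replicate 1 and up to 25248 in WT replicate 5.

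In C3aR+ microglia, class I genes were higher in APP-KI than in the libraries labelled WT C3aR+. Of the 10 genes, 7 passed the test (limma, Benjamini-Hochberg adjusted p under 0.05 over 12312 genes), all of them higher, where 13% of all genes tested were called higher and 9.71% lower. The same 7 were those whose groups of 3 did not overlap, higher in APP-KI, against 17.8% of all genes. The median log2 fold change of the 10 was 1.14, with the median of all genes tested at −0.17. The split of all calls depended on the scaling, with 1602 genes higher and 1196 lower here, 1832 and 643 with median ratio scaling, which put the median gene at −0.04, 2225 and 950 by DESeq2 and 1770 and 659 by edgeR, and the same 7 genes of the set were called higher in each of these, with Tap1 added by DESeq2. Class I heavy chains, the light chain, tapasin, Psmb8 and Nlrc5 were in the group that rose, and Tap1, Tap2 and Psmb9 were not.

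Nlrc5 gave scaled values of 30.8, 33.2 and 17.5 in the libraries labelled WT C3aR+ and of 86.7, 116 and 118 in APP-KI C3aR+. Every APP-KI library was above every WT library, and the log2 fold change of 1.97 (SE 0.24, 95% confidence interval 1.43 to 2.52, limma adjusted p = 0.000533) was the largest among the 10.

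The classical heavy chains present peptides to CD8 T cells. H2-D1 read 472, 649 and 397 in WT C3aR+ and 1235, 1674 and 2460.0 in APP-KI C3aR+. H2-K1 read 319.9, 391 and 269 in WT C3aR+ and 566, 801 and 1138 in APP-KI C3aR+. In neither gene did the groups overlap, and the third APP-KI C3aR+ library was the highest of the 6 in both. H2-D1 rose by 1.79 on the log2 scale (SE 0.25, interval 1.23 to 2.36, limma adjusted p = 0.00111) and H2-K1 by 1.31 (SE 0.23, interval 0.79 to 1.84, limma adjusted p = 0.00381).

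B2m, which encodes the light chain of class I molecules, read 771, 778 and 546 in WT C3aR+ and 1639, 1898 and 2830.5 in APP-KI C3aR+. The lowest APP-KI library was above the highest WT library, and the log2 fold change was 1.58 (SE 0.22, interval 1.09 to 2.07, limma adjusted p = 0.00102). H2-T23 encodes Qa-1, a nonclassical heavy chain that presents a leader peptide of other class I chains to NKG2A receptors. It read 105, 151 and 100.4 in WT C3aR+ and 198, 243 and 322 in APP-KI C3aR+, again without overlap, and rose by 1.09 (SE 0.20, interval 0.63 to 1.54, limma adjusted p = 0.0047).

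Of the 3 genes for peptide transport and loading, Tapbp alone passed the test. It read 273, 286 and 279 in WT C3aR+ and 361, 437 and 641 in APP-KI C3aR+. The WT libraries lay close together and below all APP-KI libraries, and Tapbp rose by 0.74 (SE 0.18, interval 0.32 to 1.15, limma adjusted p = 0.0186). Leaving out any WT C3aR+ library (replicate 1, 2 or 3) ended this call, with a fold change of 0.72 to 0.76 in those fits. Tap1 read 58.1, 86.0 and 55.2 in WT C3aR+ and 73.4, 103 and 137 in APP-KI C3aR+, with 1 WT library above the lowest APP-KI library. Its log2 fold change was 0.63 (interval 0.09 to 1.16, limma adjusted p = 0.086), and it was called without APP-KI C3aR+ replicate 1 (0.85). Tap2 read 60.8, 84.2 and 80.8 in WT C3aR+ and 62.5, 57.2 and 71.5 in APP-KI C3aR+. Its groups overlapped, with a log2 fold change of −0.23 (interval −0.60 to 0.14, limma adjusted p = 0.333).

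Of the 2 immunoproteasome subunits in the set, one passed the test. Psmb8, the chymotrypsin-like subunit β5i, read 47.8, 74.9 and 58.5 in WT C3aR+ and 143, 112 and 158 in APP-KI C3aR+, without overlap, and rose by 1.19 (SE 0.19, interval 0.77 to 1.61, limma adjusted p = 0.002). Psmb9, the subunit β1i, read 15.2, 34.9 and 23.9 in WT C3aR+ and 32.2, 37.3 and 37.3 in APP-KI C3aR+. The second WT library lay among the APP-KI libraries, and the log2 fold change of 0.58 had an interval of −0.05 to 1.21 (limma adjusted p = 0.16). The plot of scaled values by library shows these levels beside those of all sorted microglia.

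**Figure D1:**
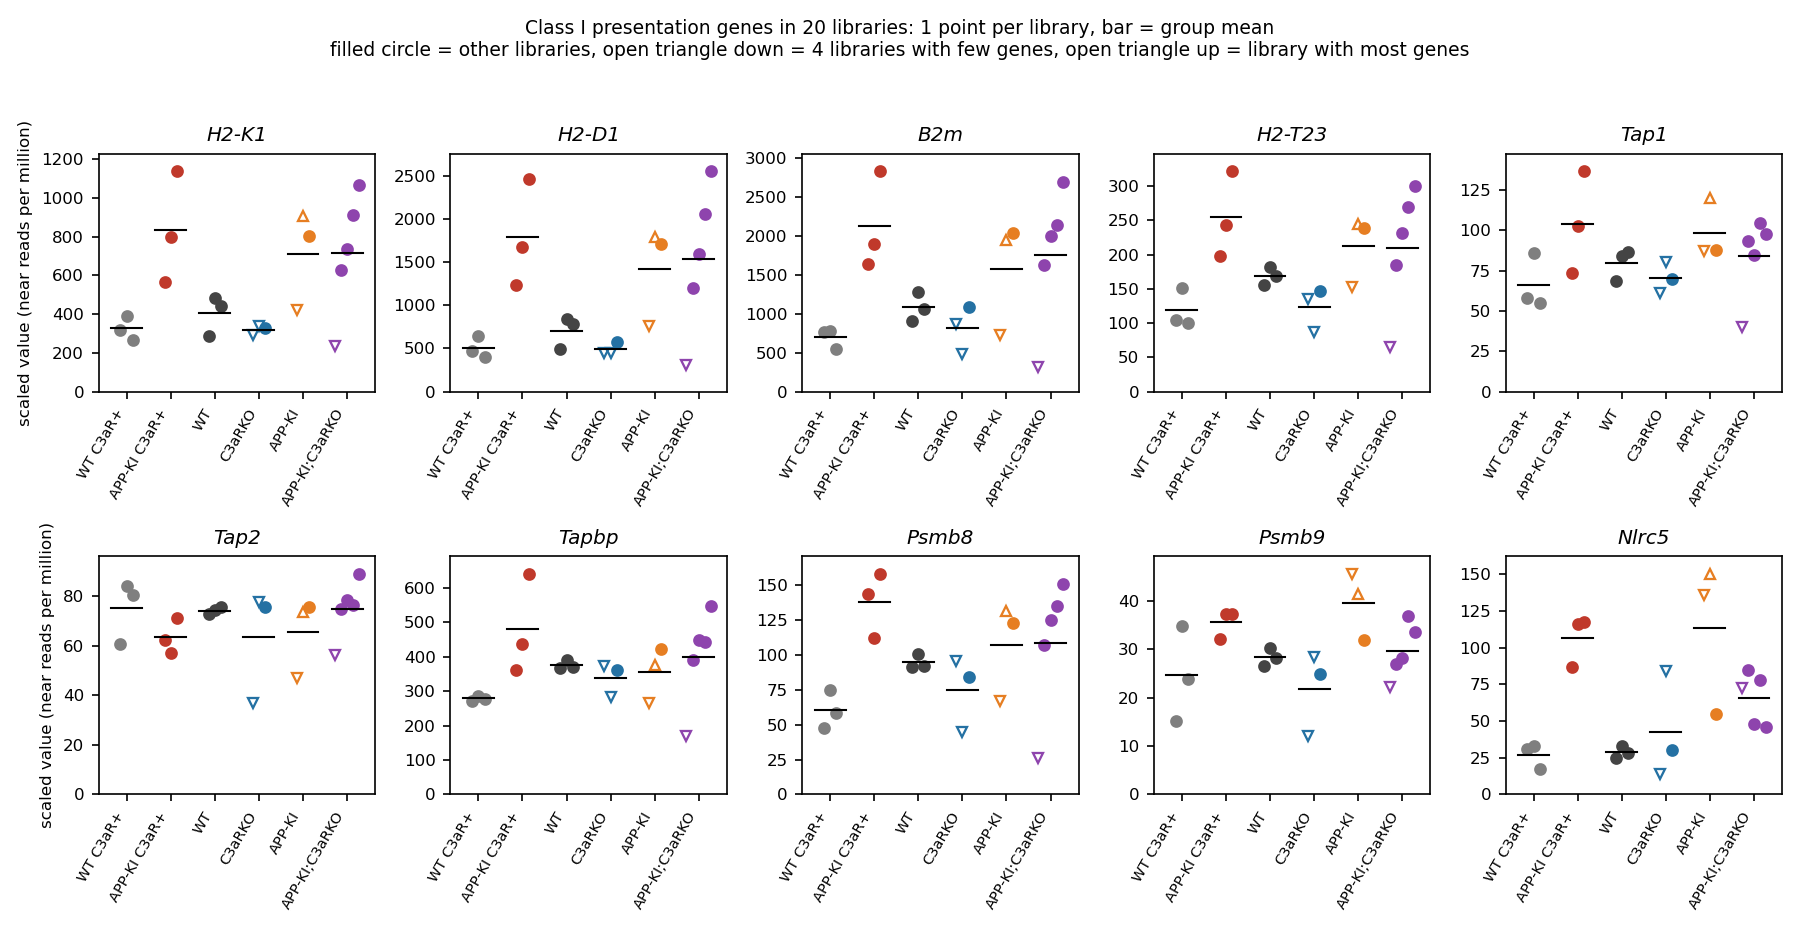
Scaled values (linear axes from 0, near CPM) of the 10 class I presentation genes in the 20 libraries, by genotype and sort, with 1 point per library, a bar at the group mean, and open triangles for the 4 libraries of few genes (down) and the library of most genes (up). In APP-KI C3aR+ the points of 7 genes lie wholly above those of WT C3aR+, and in all sorted microglia APP-KI;C3aRKO replicate 1 lies below the other libraries of its group for every gene but Nlrc5.

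In bulk RNA a change in the number of cells of a type and a change in the RNA per cell cannot be told apart. Markers of other cells moved with these groups. The summed level of the border macrophage markers (Mrc1, Pf4, F13a1, Lyve1, Cd163 and Ms4a7) was 466 to 694 in WT C3aR+ and 182 to 404 in APP-KI C3aR+, and 4 of its 6 genes fell. The microglial markers summed to 20118 to 21951 and 12838 to 16457, and 5 of 7 fell, with Tmem119 at −1.45. Endothelial markers summed to 50.7 to 108 in WT C3aR+ and 191 to 348 in APP-KI C3aR+, where Flt1 rose by 3.75 and Pecam1 fell by 2.09 on the log2 scale. Monocyte and neutrophil markers summed to 40.2 to 219 and 43.0 to 119.5, and none of 6 was called. The T and NK cell markers were at or near 0, summing to at most 5.8 in any C3aR+ library, and 4 of the 5 found (Cd3e, Cd3g, Nkg7 and Ncr1) had no read in any APP-KI C3aR+ library. Oligodendrocyte markers summed to 119 to 165 in WT C3aR+ and 178 to 202 in APP-KI C3aR+, with Mbp called higher (1.07), and astrocyte markers to 299 to 395 and 222 to 266, with Gfap (2.58) called higher and Slc1a3 (−0.55) lower. Neuronal markers summed to at most 5.5, and the 1 tested was not called. Of the genes that cell dissociation induces, Atf3 (1.85) was called higher and Jun (−0.87) and Hspa1a (−1.03) lower, and their sums overlapped (2186 to 3406 and 1856 to 2217). The part of these shifts in the class I values was not tested.

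Class I heavy chains outside the set were called in both directions. Of 13 tested, 6 rose in APP-KI C3aR+ microglia, H2-Q7 (2.19), H2-Q6 (2.00), H2-Q4 (1.43), H2-T22 (1.27), H2-M3 (1.18), which presents formylated peptides, and Mr1 (0.77), which presents vitamin B metabolites to MAIT cells. Fcgrt (−0.83), the neonatal Fc receptor, and Hfe (−0.66), a regulator of iron uptake, fell, and 5 did not pass the test. Both are class I-like chains that present no peptide, and H2-Q6 and H2-Q7 are near-identical copies whose reads may have been split between them. The median of the 13 was 1.18.

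Of 11 genes for peptide loading and trimming outside the set, 5 rose and none fell, with a median of 0.48. They were Sec61b (1.17), a subunit of the channel into the endoplasmic reticulum, Pdia3 (0.84), which is held in the loading complex with tapasin, the chaperones Calr (0.60) and Canx (0.60), and Hsp90b1 (0.48). Of 6 other genes of the immunoproteasome and its activator PA28, Psme1 rose by 0.49 and Psmb10, the third immunoproteasome subunit, fell by 0.67 on the log2 scale, and the median was 0.11. DESeq2 called Psme1 and Pomp of these genes higher and did not call Psmb10. Among the constitutive subunits Psmb5, Psmb6 and Psmb7, Psmb6 rose by 0.71.

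Of 24 regulators of class I genes, 3 rose, Stat2 (0.74), Irf8 (0.62) and the interferon receptor subunit Ifnar2 (0.52), and 2 fell, the interferon-γ receptor subunit Ifngr1 (−0.78) and Irf2 (−0.46). These counts lay near the shares over all genes tested, 13% called higher and 9.71% lower. Their median of −0.21 lay beside that of all genes. Of 22 interferon-stimulated genes 10 rose and 2 fell, with a median of 1.01. Zbp1 (2.48), a sensor of nucleic acids, Ifitm3 (1.92), Cxcl10 (1.86), Oasl2 (1.66), Ifit2 (1.58), Isg15 (1.51), Ifit3 (1.38), Usp18 (1.28), Bst2 (0.99) and Ifih1 (0.69) rose. The guanylate-binding protein genes Gbp3 (−2.31) and Gbp7 (−1.71) fell. Of 7 MHC class II genes only Cd74 (1.75), the invariant chain, passed the test, with a median of 0.98 over the 7. Among 6 genes of a list of class I receptors and related molecules, not all of which bind class I, the inhibitory receptor Lilrb4a rose by 2.05. Klra2 (−1.49) and Pirb (−0.80) of that list fell. The plot of gene lists shows each gene of these groups.

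Whether Psmb8 and Psmb9 moved with or apart from the constitutive subunits they replace was asked of their ratio within each library, which cancels the scaling of a library. The ratios are not divided by gene length and are compared between libraries alone. Psmb8 stood to Psmb5 at 4.91, 8.52 and 24.2 in the libraries labelled WT C3aR+ and at 12.8, 18.9 and 9.31 in APP-KI C3aR+. The WT range enclosed the APP-KI range, and the mean log2 ratio differed by 0.38 (exact permutation test, two-sided, p = 0.6, smallest p possible 0.1). Psmb5 had low scaled values, 2.69 to 10.8 per kilobase of exon in WT C3aR+ and 6.61 to 18.9 in APP-KI C3aR+. The ratio of 24.2 came from the WT C3aR+ library with the lowest Psmb5, so the spread of the ratio includes that of a weakly read gene. Psmb9 stood to Psmb6 at 0.361, 0.824 and 0.603 in WT C3aR+ and at 0.455, 0.722 and 0.424 in APP-KI C3aR+, a difference of −0.12 (exact permutation test, two-sided, p = 0.9). In C3aRKO the ratio of Psmb8 to Psmb5 was 25.2 and 20.6 in the 2 libraries of few genes and 9.04 in the third, and in WT it was 11.3, 9.54 and 9.54, a difference of 0.73 (exact permutation test, two-sided, p = 0.4). The lowest p was for Psmb9 to Psmb6 in APP-KI;C3aRKO (0.411 to 0.482) against APP-KI (0.451 to 0.763). That difference was −0.47 (exact permutation test, two-sided, p = 0.0714). Of 14 such tests none passed after adjustment (every adjusted p 1), and none could have. The smallest p possible was 0.1 for 3 libraries against 3 and 0.0179 for 5 against 3. Both are too large to pass after adjustment over the 14, so these tests cannot decide whether a ratio changed.

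**Figure D2:**
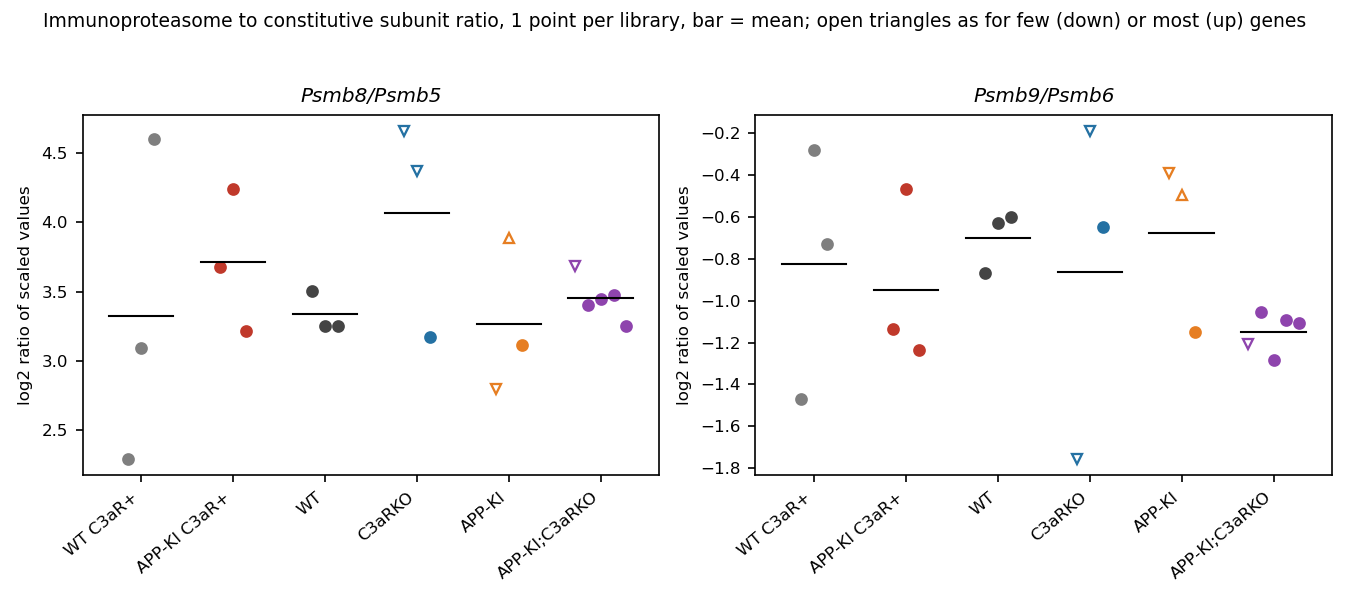
Log2 ratio of the scaled values of an immunoproteasome subunit to those of the constitutive subunit it replaces (no unit), with 1 point per library, a bar at the group mean and open triangles for libraries of few (down) or most (up) genes. The points of WT C3aR+ for Psmb8 to Psmb5, ratios from 4.91 to 24.2, spread beyond those of APP-KI C3aR+ on both sides.

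In all sorted microglia, where APP-KI was compared with WT without regard to C3aR, no gene of the set passed the test, against 2.22% of all genes called higher and 1.93% lower. The log2 fold changes ran from −0.11 (Tap2) to 1.69 (Nlrc5), with a median of 0.52 beside −0.01 for all genes tested. By limma's unadjusted p, Nlrc5 (0.0041), H2-D1 (0.0154) and H2-K1 (0.0157) were the lowest and the other 7 were above 0.05. The C3aR+ and all-sorted comparisons share no library.

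Nlrc5 read 24.6, 32.8 and 28.3 in WT and 136, 150.1 and 54.6 in APP-KI. All APP-KI libraries were above all WT libraries, with a log2 fold change of 1.69 (SE 0.49, interval 0.63 to 2.74, limma adjusted p = 0.081), but the 2 highest were the APP-KI libraries with the fewest and the most genes detected. The first of the 2 library series, which are read from the library numbers and hold 7 libraries each, gave a difference of 2.49 (2 APP-KI libraries against 1 of WT) and the second 0.82 (1 against 2). Tap1 and Psmb9 were the other genes of the set whose groups did not overlap, against 12.8% of all genes. Tap1 read 68.4, 84.0 and 86.5 in WT and 87.3, 120.1 and 87.8 in APP-KI, and Psmb9 read 26.6, 30.3 and 28.2 in WT and 45.6, 41.4 and 31.9 in APP-KI. Their log2 fold changes were 0.38 and 0.51 (limma adjusted p = 0.752 and 0.599).

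H2-D1 read 491, 838 and 787 in WT and 759, 1784 and 1706 in APP-KI. H2-K1 read 289, 486 and 444 in WT and 421, 908 and 802 in APP-KI. In both genes APP-KI replicate 4 lay within the range of WT and the other 2 APP-KI libraries above it. The log2 fold changes were 1.28 (interval 0.28 to 2.27, limma adjusted p = 0.197) and 0.99 (interval 0.22 to 1.77, limma adjusted p = 0.2). B2m read 911, 1281 and 1057 in WT and 733, 1952 and 2030.2 in APP-KI, with replicate 4 of APP-KI the lowest of the 6, and a log2 fold change of 0.75 (interval −0.36 to 1.85, limma adjusted p = 0.706). H2-T23 (0.52), Psmb8 (0.34) and Tapbp (0.05) had the same low library, at 153, 66.8 and 265, and were not called. Within the first and second library series H2-D1 differed by 1.24 and 1.07, H2-K1 by 1.09 and 0.79, and B2m by 0.39 and 0.80.

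The counts of calls in this comparison changed with the libraries used. Without the 4 libraries of few genes, 6 of the 10 genes were called higher, beside 13.2% of all genes, namely Nlrc5 (1.56), H2-D1 (1.43), H2-K1 (1.17), B2m (0.95), H2-T23 (0.56) and Psmb8 (0.44), and of 13 other heavy chains 7 rose and 3 fell. Without the library of most genes too, which leaves APP-KI replicate 6 alone in its group with the spread taken from the others, 3 were called, H2-D1 (1.06), H2-K1 (0.82) and B2m (0.78), beside 7.88% of all genes. With a term for sex, Nlrc5 alone was called (1.98, limma adjusted p = 0.0069), beside 2.74% of all genes. T and NK cell markers summed to 56.4 in APP-KI replicate 5 and to at most 2.4 in the other APP-KI and WT libraries, and their part in these values was not tested. Of the pathway lists, all with the full set of libraries, H2-M3 and H2-Q6 (2.04) were called higher and Ifngr1 (−0.93) and Gbp7 (−1.90) lower, and no gene of the loading, immunoproteasome, constitutive subunit or class II lists was called. Of the cell type markers, Flt1 (4.26) was called higher and Sall1 (−0.94), Siglech (−0.70), Mrc1 (−1.69) and F13a1 (−1.38) lower, and their part in the class I values was not tested.

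**Figure D3:**
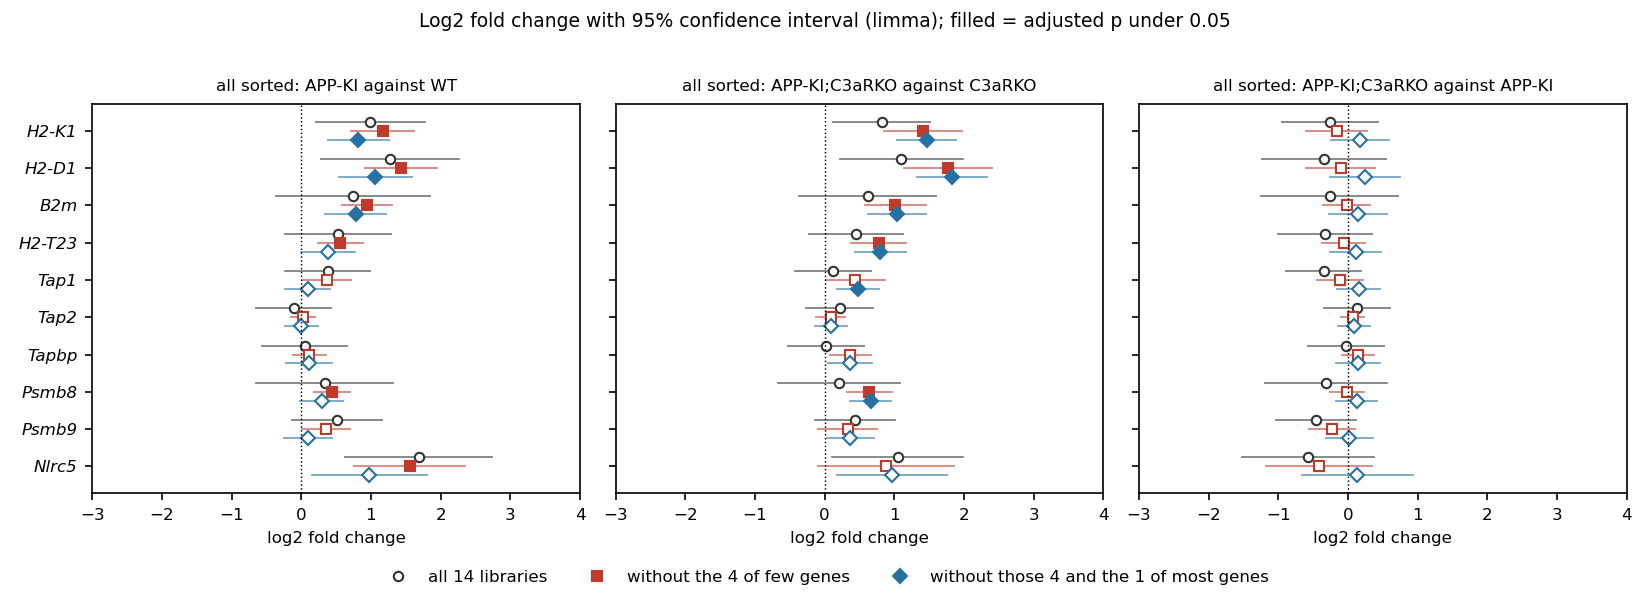
Log2 fold changes (points) with 95% confidence intervals (lines) of the 10 class I presentation genes in 3 comparisons of all sorted microglia, with all 14 libraries, without the 4 libraries of few genes and without those and the library of most genes, filled where limma's adjusted p was under 0.05. For APP-KI against WT 0, 6 and 3 genes were called, for APP-KI;C3aRKO against C3aRKO 0, 5 and 6, and for APP-KI;C3aRKO against APP-KI none in any of them.

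Loss of C3ar1 in plaque-bearing mice was read from APP-KI;C3aRKO against APP-KI. No gene of the set was called (limma adjusted p = 0.998 for each), and of all genes 0% were higher and 0.00806% lower, a single gene, C3ar1. At an unadjusted p under 0.05, 38 genes were higher and 109 lower of 12407, and DESeq2 and edgeR likewise called none of the 10. H2-K1 read 237, 626, 737, 911 and 1064 in APP-KI;C3aRKO, H2-D1 read 306, 1199, 1594, 2054 and 2552, and B2m read 322, 1629, 1999.8, 2133 and 2687. In each of them the first library lay far below the other 4, which spanned the 2 higher APP-KI libraries. The log2 fold changes were −0.26 for H2-K1 (interval −0.95 to 0.43), −0.34 for H2-D1 (interval −1.23 to 0.54) and −0.26 for B2m (interval −1.24 to 0.72), which leave room for a change of either sign.

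Nlrc5 read 72.3, 84.6, 48.0, 78.1 and 46.2 in APP-KI;C3aRKO, below the 2 higher APP-KI libraries and around the third, with a log2 fold change of −0.57 (interval −1.52 to 0.37). It was the only gene of the 10 for which the first APP-KI;C3aRKO library was not the lowest of its group. Tap2 read 56.3, 74.9, 78.4, 76.6 and 89.1, with a fold change of 0.13. Within the first library series H2-D1 differed by −0.94 and within the second by 0.25, H2-K1 by −0.68 and 0.16, B2m by −0.72 and 0.15 and Nlrc5 by −0.86 and 0.03, so H2-D1, H2-K1 and B2m were lower in the series that holds the low library and higher in the other. Without APP-KI;C3aRKO replicate 1 their fold changes were 0.18, 0.11 and 0.30. Without the 5 libraries that stood apart, the 10 fold changes ran from 0.02 to 0.25. That fit leaves APP-KI replicate 6 alone in its group, so these values rest on 1 APP-KI library.

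Loss of C3ar1 without plaques, C3aRKO against WT, gave fold changes from −0.39 (Psmb9) to 0.06 (Nlrc5), and none was called, beside 0% of all genes higher and 0.00806% lower. Psmb9 read 12.1, 28.4 and 24.8 in C3aRKO. H2-T23, at 136, 87.2 and 147, was the 1 gene whose groups did not overlap, lower in C3aRKO (log2 fold change −0.26), where 9.31% of all genes lay wholly lower. Nlrc5 read 13.7, 84.3 and 30.2, from below the WT libraries to above them. Its highest value fell in C3aRKO replicate 2, a library of few genes with T and NK cell markers at 50.5, and their part in it was not tested. Leaving out that library moved the fold change of Nlrc5 to −0.50, and leaving out replicate 1 moved it to 0.70. The WT libraries are also those of APP-KI against WT. In the interaction test, which asks whether C3ar1 loss had another effect in APP-KI than in WT mice, none of the 10 was called, with log2 differences from −0.63 (Nlrc5) to 0.33 (Tap2) (limma adjusted p = 0.9985).

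Among mice without C3ar1, APP-KI;C3aRKO against C3aRKO, no gene of the set was called with all libraries, beside 3.96% of all genes higher and 2.97% lower. H2-D1 read 452, 443 and 571 in C3aRKO, H2-K1 read 292, 337 and 328, and B2m read 869, 489 and 1087. For H2-D1 and H2-K1 these were below 4 of the 5 APP-KI;C3aRKO libraries and above the first. The log2 fold changes were 1.1 for H2-D1 (interval 0.22 to 1.98, limma adjusted p = 0.14), 0.82 for H2-K1 (interval 0.13 to 1.51, limma adjusted p = 0.163), 0.62 for B2m (limma adjusted p = 0.487), 0.45 for H2-T23, 1.05 for Nlrc5 (interval 0.11 to 1.99, limma adjusted p = 0.19) and 0.02 for Tapbp.

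Without APP-KI;C3aRKO replicate 1, H2-D1 (1.62), H2-K1 (1.19), B2m (1.18) and H2-T23 (0.85) were called higher, beside 6.1% of all genes. Without the 4 libraries of few genes 5 were called, H2-D1 (1.77), H2-K1 (1.41), B2m (1.01), H2-T23 (0.78) and Psmb8 (0.64), beside 13.2% of all genes higher, and without the library of most genes too Tap1 (0.48) joined them, beside 14.3%. Both fits hold a single C3aRKO library, replicate 3, whose spread is taken from the other groups. In the second library series, which holds that library and 3 of APP-KI;C3aRKO, H2-D1 differed by 1.83, H2-K1 by 1.44, B2m by 1.05, H2-T23 by 0.84 and Psmb8 by 0.70, and in the first by 0.44, 0.30, 0.15, 0.01 and −0.30. With a term for sex, which moved with genotype here, Nlrc5 alone was called (1.86, limma adjusted p = 0.0168), beside 2.95% of all genes. Among the related lists, Cd74 (1.84), H2-Aa, H2-DMa and H2-DMb1 of the 7 class II genes were called higher with all libraries, as were H2-M3, H2-Q6 and Psmb6 (0.72), and 3 interferon-stimulated genes (Gbp3 at −2.55, Gbp7 and Ddx58) and Ifngr1 (−0.90) were called lower. With the sex term no class II gene was called, nor were H2-Q6, Psmb6 and Gbp3, while H2-M3, Gbp7, Ddx58 and Ifngr1 stayed called. H2-Q4 and H2-Q7 were then also called higher and Jak1 lower. Of the cell type markers, Flt1 (3.80) and Mbp (1.06) were called higher and Siglech (−0.69), Mrc1 (−1.19), F13a1 (−0.97) and Ccr2 (−1.43) lower, and their part in the class I values was not tested. With the sex term Siglech, F13a1 and Ccr2 were not called, and Sall1, P2ry12 and Tmem119 were called lower.

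**Figure D4:**
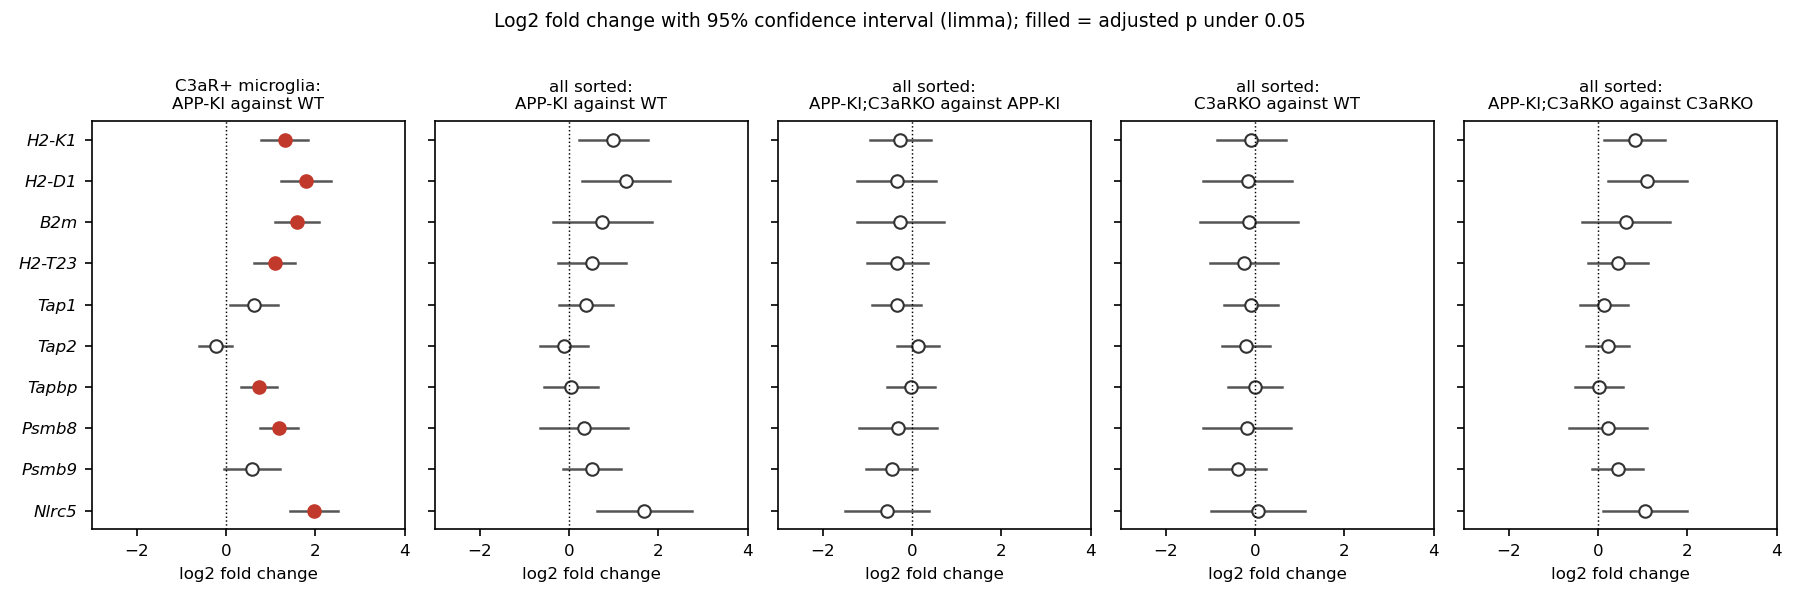
Log2 fold changes with 95% confidence intervals of the 10 class I presentation genes in C3aR+ microglia and in 4 comparisons of all sorted microglia, from limma, filled where the adjusted p was under 0.05. The 7 filled points are all in C3aR+ microglia, above 0, and no gene is filled in the other 4 panels, which use all 14 libraries.

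Whether the sort changed the response was read from 12 WT and APP-KI libraries of both kinds, in which the C3aR+ sort cannot be told apart from the reporter allele and from a library series of its own. In WT, no gene differed past the threshold between C3aR+ and all sorted microglia, and 4 genes lay wholly lower in the libraries labelled WT C3aR+, B2m (log2 difference −0.64), H2-T23 (−0.52), Tapbp (−0.43) and Psmb8 (−0.66), where 13.2% of all genes lay wholly lower. In APP-KI the largest difference was 0.53 for B2m (limma adjusted p = 0.818). The effect of APP-KI was larger in C3aR+ microglia by 1.17 for B2m (interval 0.11 to 2.23, limma adjusted p = 0.405) and by 0.13 for Psmb9. No gene of the 10, and 0% of all genes, passed this interaction test by limma, and DESeq2 called 87 genes higher and 33 lower but none of the set. A call in C3aR+ microglia and none in all sorted microglia is thus not shown to be a difference between them.

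Divided by the length of annotated exons in kilobases, scaled values gave an order of levels that was much alike in all 6 groups. B2m was highest, with group means from 812 in WT C3aR+ to 2468 in APP-KI C3aR+, followed by H2-D1 (189 to 694), H2-K1 (109 to 284) and Tapbp (77.0 to 132). H2-T23 came next at 41.1 to 88.0, Psmb8 at 17.9 to 40.8, Tap2 at 16.8 to 19.9, Tap1 at 12.1 to 19.0, and Psmb9 (6.0 to 10.8) and Nlrc5 (3.2 to 13.4) were lowest. Tap2 and Psmb8 exchanged places in WT C3aR+, as did Tap1 with Tap2 and Psmb9 with Nlrc5 in APP-KI C3aR+ and in APP-KI. The ranges of B2m, H2-D1 and H2-K1 were apart in the 4 groups other than APP-KI and APP-KI;C3aRKO. In APP-KI;C3aRKO, with its low first library, every pair of neighbours overlapped, and in WT only H2-K1 and Tapbp did. Every gene lay above the filter on low values in every library, the lowest scaled value being 12.1 for Psmb9 in C3aRKO replicate 1.

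Across the 14 libraries of all sorted microglia, each gene's log2 level was set against the mean of the other 9. Pearson's r ran from 0.22 for Nlrc5 to 0.96 for H2-D1, and over the 6 C3aR+ libraries from −0.30 for Tap2 to 0.99 for H2-T23. Outside the set, the genes most like its mean were Gm11808, Lgals3bp, Eif3f, Pofut2 and Evi2a in the 14 libraries (r from 0.941 to 0.959) and Ide, Slc11a2, Cep170b, Tcn2 and Tmsb10 in the 6 (r from 0.990 to 0.994). These libraries share their groups, depth and low libraries, and the values of r are a description.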

How the data were processed

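RNA was made into libraries with the Takara SMARTer Total RNA Pico v3 kit, which adds molecular identifiers, and the authors trimmed reads with cutadapt, aligned them with TopHat2 to mm10, counted them with featureCounts and compared groups with DESeq2. Whether identifiers were used in counting is not given in the sources used here. The authors deposited what they call FPKM, but the values are a signal: gene reads over the upper quartile (percentile 75) of reads in the same library, not divided by length. Whole reads were recovered for 100% of values in every library (within 0.05 of a read), and counts served as an alternative. The test had been planned for FPKM and was kept on a log scale.

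Values were multiplied by 35.2. limma 3.58.1 (R 4.3.3), with its trend option, was applied to log2(scaled value + 1), a scale that understates changes of low genes. Only genes averaging 1 or more in the libraries fitted were kept, and p-values were adjusted by Benjamini-Hochberg. The 6 C3aR+ libraries were fitted alone, the 14 of all sorted microglia together with the library series as a term, and 12 of WT and APP-KI for the sort. Groups and replicate numbers came from the labels, which do not say that each library is 1 mouse, so p-values measure the spread between these samples. Replicates differed by more than counting noise (chi-square per degree of freedom 18.5 to 787). Same-numbered replicates did not deviate together throughout (r from −0.31 to 0.25), so the numbers were not taken as pairs. DESeq2 1.42.0 and edgeR 4.0.16 were run on the recovered reads. Ratios were compared by exact permutation tests over all arrangements of the libraries, computed with numpy 2.4.6. Fits were also run on simulated reads. These had no libraries of few or most genes and no series or sex differences, so that run does not cover such effects.

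Every gene of the set is named. Of the other lists, the genes past the threshold or with the largest fold change are named, beside the 5 genes most like the set's mean among those averaging 5 or more. The set, the lists and the tests were chosen with earlier results of these data known. Some genes of the lists are not reported here. Alternatives were a pseudocount of 0.1, other filters and scalings, limma without a trend, the count tests, a replicate block, an adjusted p under 0.0005, no series term, only the 2 groups compared, and each library left out in turn. Leaving out the 4 libraries with reads on fewer than 14000 genes, leaving out also that with over 20000, and a term for sex, from 4 Y-linked genes, were added after seeing the data. Promoters came from RefSeq (GRCm38.p6) and positions from GENCODE M21.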

Additional observations from a re-analysis of the deposited data

Results flagged for a closer look

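Groups of 5 libraries were screened for 1 value far from the others, and 12 measures of APP-KI;C3aRKO were looked at. In APP-KI;C3aRKO replicate 1, the lowest of its group, the gap to the next library was 0.806 of the group's range on the log2 scale for Psmb8, 0.784 for Tap1, 0.764 for B2m and 0.713 for Tapbp, above the critical value of 0.71 (Dixon's test). Chance gives such a gap in about 1 of 20 groups, and the 4 genes share the library. H2-T23 (0.680), H2-K1 (0.646), H2-D1 (0.644) and Tap2 (0.621) had the same library at the low end without passing it. That library had reads on 12386 genes and summed microglial markers of 7537.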

How the results depend on the processing

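In C3aR+ microglia the count of 7 genes called higher became 0 at an adjusted p under 0.0005 and lay between 6 and 8 under every other alternative run. With 1 library left out, 1777 to 2528 of all genes were called there in either direction. In all sorted microglia, APP-KI against WT gave 2 called genes by DESeq2. It gave 6 without the 4 libraries of few genes, beside 13.2% of all genes called higher. With a sex term it gave 1, beside 2.74%. With 1 library left out it gave 0 to 2, where 218 to 837 of all genes were called in either direction. APP-KI;C3aRKO against C3aRKO gave 2 by DESeq2 and 1 with a sex term, beside 2.95% of all genes called higher with that term. With 1 library left out it gave 0 to 4, where 614 to 1397 of all genes were called. Fits that leave 1 library in a compared group are not counted here. The counts over all genes by DESeq2 and with the replicate block are not reported here for these 2 comparisons. With a replicate block, which the data did not bear out as pairing, APP-KI against WT gave 1 called gene, Tapbp became −0.11 there and −0.12 in APP-KI;C3aRKO against C3aRKO, H2-K1, H2-D1 and B2m became 0.65, 0.93 and 0.87 in APP-KI;C3aRKO against APP-KI, and H2-T23 and Nlrc5 became 0.58 and −0.16 in C3aRKO against WT. No block could be fitted for the 2 comparisons of C3aR+ with all sorted microglia.

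Other reversals were of small values. For APP-KI against WT, Tap2 became 0.0201 without the 4 libraries and 0.0035 without the 5, and Tapbp −0.11 without the series term, −0.0302 with only the 2 groups and −0.0681 with a sex term. For APP-KI;C3aRKO against APP-KI without the 5 libraries, H2-K1, H2-D1, B2m and Nlrc5 became 0.18, 0.25, 0.14 and 0.14, and B2m 0.0051 without the series term. Nlrc5 became −0.0170 in C3aRKO against WT with a sex term, and Tapbp −0.0225 with only the 2 groups and −0.29 with a sex term in APP-KI;C3aRKO against C3aRKO. The Psmb9 ratio in C3aR+ microglia became 0.60 against the mean of Psma1 to Psma7. With 1 library left out, fold changes ran from −0.25 to 0.0499 for Tap2 and −0.0800 to 0.26 for Tapbp in APP-KI against WT, from −0.48 to 0.11 for H2-K1, −0.57 to 0.18 for H2-D1, −0.56 to 0.30 for B2m and −0.0341 to 0.28 for Tap2 in APP-KI;C3aRKO against APP-KI, from −0.50 to 0.70 for Nlrc5 in C3aRKO against WT, from −0.13 to 0.33 for Tapbp in APP-KI;C3aRKO against C3aRKO, and from −0.17 to 0.41 for Psmb9 in the sort interaction. The ratios in C3aR+ microglia ran from −0.13 to 1.02 (Psmb8 to Psmb5) and −0.44 to 0.15 (Psmb9 to Psmb6). The causes were not tested. Apart from fits with 1 library left out, 518 single-gene and ratio values kept their direction and side of the threshold, 25 passed it, 9 lost it and 21 changed sign. Exact tests of 3 libraries against 3 cannot give a p under 0.1.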

Other observations

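Psmb10, the immunoproteasome subunit outside the set, went the other way from Psmb8 in C3aR+ microglia by limma, with log2 fold changes of −0.67 for Psmb10 and 1.19 for Psmb8. By DESeq2 Psmb8 was called higher and Psmb10 was not called. Interferon-stimulated genes were called in both directions, with Zbp1, Ifitm3 and Cxcl10 higher and Gbp3 and Gbp7 lower in APP-KI C3aR+ microglia. Ifngr1, a subunit of the interferon-γ receptor, was lower in APP-KI in C3aR+ microglia (−0.78), in all sorted microglia (−0.93) and in mice without C3ar1 (−0.90), each past the threshold by limma.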
